A study of Mus musculus with 18 samples.

Results

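Epithelial cells are held together by junctions whose parts are encoded by the claudin, cadherin and desmosome genes, and 66 such genes were followed here across 18 messenger RNA libraries of mouse thyrocytes. The genes were chosen by symbol from the 23626 named entries of the expression table: 23 claudins, 23 classical and atypical cadherins, 9 desmosomal cadherins (the Dsc and Dsg genes), 4 plakophilins, the zonula occludens (Tjp) genes, and Ocln, Dsp, Jup and Epcam.

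Every library came from thyrocytes (the hormone-making epithelial cells of the thyroid) sorted for a yellow fluorescent protein (YFP) and taken at 20 weeks, with no treatment. Of the 15 tumour libraries, which all carried BrafV600E, an allele that keeps the growth-signalling kinase Braf active, 4 had no further change (Braf tumours). In 7 the Tert promoter change Tert-123C>T was added (Tert-123 tumours), and in 4 the K5-Tert transgene was present, in which a keratin 5 promoter drives Tert, the catalytic subunit of telomerase (K5-Tert tumours). The other 3 libraries lacked the Braf mutation, and each was a single library made from pooled samples: K5-Tert alone, Tert-123C>T alone, and wild type. The Cre line that switched on Braf and YFP and the number of mice in a pool are not stated in the labels, and the tissue label is thyroid tumour for the pools as well. Nothing in the labels says that each tumour library is a separate mouse, so p-values measure the spread between these libraries.

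Levels are given in TPM, a length-scaled share of the transcripts of a library scaled to a total of 1000000, so that levels of different genes can be set side by side. The number of reads behind a value is unknown. Rpph1, a noncoding RNA, took 43.7% to 68.8% of the TPM, and 10958 to 15045 genes reached 1 TPM. Tert averaged 4.59 ± 0.603 TPM (SD, n = 4) in Braf tumours, 5.18 ± 1.34 (n = 7) in Tert-123 tumours and 39.3 ± 29.4 (n = 4) in K5-Tert tumours, and was at 125, 8.79 and 2.15 TPM in the K5-Tert, Tert-123 and wild-type pools. Thyrocyte markers (13 genes, led by Tg) summed to 418 to 1334 TPM in the tumours and 26919 to 33396 TPM in the pools, and 8 of the 13 were at 1 TPM or more in every tumour. The sorts also held transcripts of other cells. Macrophage markers (9 genes) summed to 220.4 to 5203 TPM in the tumours and 61.2 to 286 in the pools, and C cell markers (6 genes) to 5.98 to 44.7 TPM in the tumours and 260.4 to 2154 in the pools. The Tert-123 pool stood apart from the other pools with the highest C cell sum (2154 TPM), parathyroid sum (642 against 32.6 and 30.3 TPM), T and B cell sum (181 against 10.8 and 4.43) and endothelial sum (1218 against 141 and 421). A mix of lung, airway and squamous genes (9 genes) summed to 2552 to 7463 TPM in the tumours and 66.5 to 114 in the pools. Only 3 of these 9 genes were at 1 TPM or more in every tumour, so the sum need not hold for each of them.

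Tight junctions seal the space between neighbouring cells: claudins form the seal or its ion-selective pores, occludin runs along it, and the Tjp scaffold proteins tie it to actin. In the thyroid this seal keeps thyroglobulin inside the follicle. Below it, the cadherin Cdh1 joins cells at adherens junctions, and desmosomes anchor the keratin filaments through the Dsc and Dsg cadherins, plakoglobin (Jup), the plakophilins and desmoplakin (Dsp). Epcam is a surface glycoprotein of epithelia, and Cdh16 is a cadherin made mainly by kidney and thyroid epithelium. Each cell type has its own choice of claudins and cadherins, with Cdh5 in endothelium and Cdh11 in fibroblasts as standard examples.

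A small set of genes held most of the adhesion transcripts. Of the 66 genes, 37 averaged 1 TPM or more over the 15 tumours, 20 averaged 10 or more, 9 averaged 50 or more and 5 averaged 100 or more, while 12 stayed under 1 TPM in every library. The 5 highest by tumour mean were Cldn3 (318 TPM), Epcam (293), Cldn4 (134), Cdh1 (107) and Jup (104), and those over 50 TPM also included Cldn7 (72.1), Dsp (68.6) and Tjp1 (52.6). Neighbours in this order had overlapping ranges: Cldn3 ran from 206 to 469 TPM over the tumours and Epcam from 129 to 522. A filter of 10 TPM in at least 4 libraries let 22 of the 66 genes into the tests between tumour groups and 23 into the test of the Braf mutation. The added gene was Ocln, which passed through the 3 pools and 1 tumour, and 43 genes passed nowhere.

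**Figure D1:**
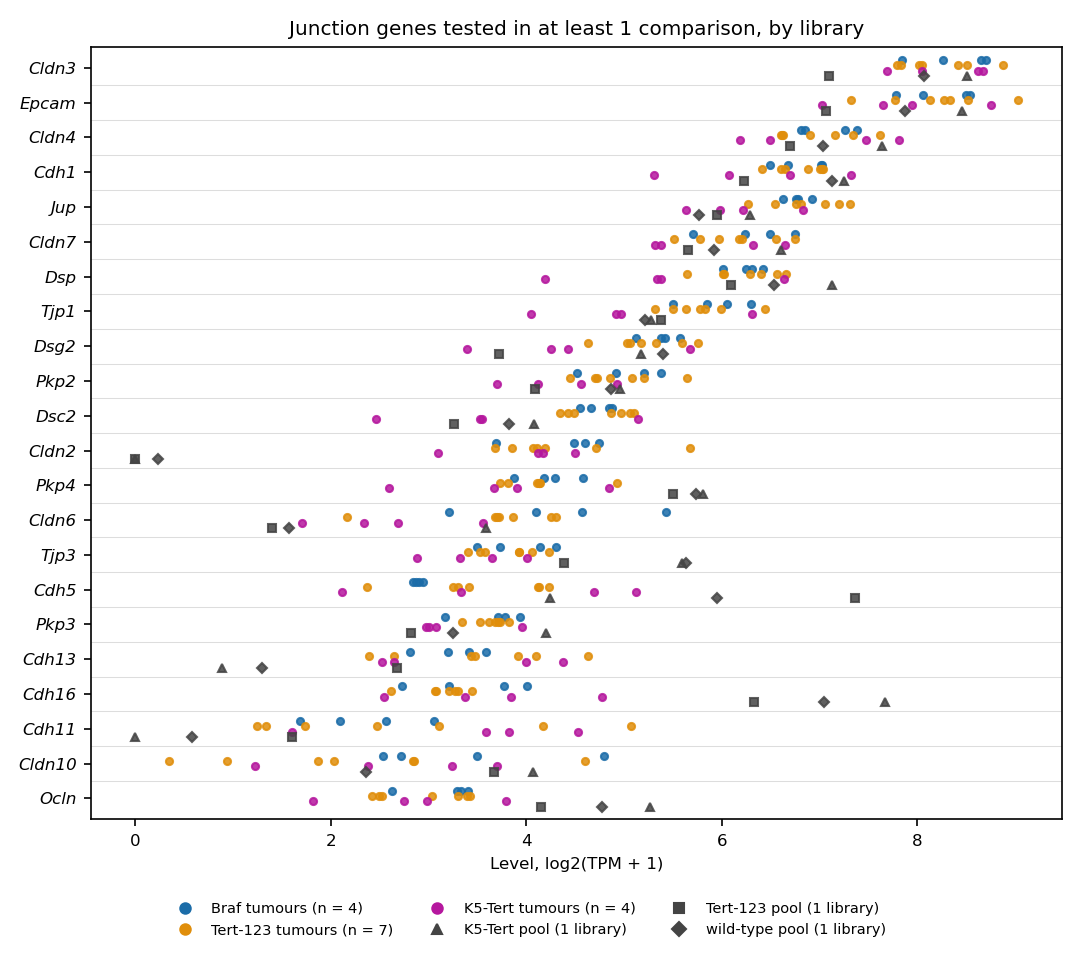
Level of 22 of the 23 adhesion genes that entered a test, as log2(TPM + 1) on the horizontal axis, with 1 point per library; coloured circles are tumours (4 Braf, 7 Tert-123, 4 K5-Tert) and dark symbols are the 3 single pools. Cldn3 and Epcam lie highest in the tumours and in the K5-Tert and wild-type pools, while Cdh5 lies above both in the Tert-123 pool (164 TPM). The pools stand to the right of all 15 tumours for Cdh16, Ocln, Pkp4 and Tjp3 and to the left of all of them for Cldn2.

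The sealing claudins made up the bulk of the claudin transcripts. Cldn3, Cldn4 and Cldn7 together were 81.8% to 94.0% of all claudin TPM in the tumours and 88.2% to 90.1% in the pools, so the ranges overlapped. All claudins summed to 632 ± 143 TPM in Braf tumours (SD, n = 4), 576 ± 152 (n = 7) in Tert-123 tumours and 570 ± 196 (n = 4) in K5-Tert tumours, against 731, 327 and 507 TPM in the K5-Tert, Tert-123 and wild-type pools. Among cadherins the make-up differed between tumours and pools. Of the summed TPM of Cdh1 and Cdh16, Cdh1 was 79.6% to 95.8% (median 92.0%) in the tumours and 42.7%, 48.2% and 51.4% in the K5-Tert, Tert-123 and wild-type pools. The lowest share, 79.6%, was in K5-Tert tumour 3. The desmosomal set rested on Dsg2 and Dsc2, the only 2 of the 9 desmosomal cadherins to average 1 TPM in the tumours, together with Jup, Dsp and Pkp2.

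Tumours with the Braf mutation were first set against the pools without it. The comparison fits the mutation beside the Tert allele over all 18 libraries with limma on log2(TPM + 1), so that each pool is matched with tumours of its own allele. With 1 pool per allele, the spread behind these p-values comes mostly from the tumours. It does not measure the variation among thyroids without the mutation. Only the libraries without the mutation are labelled as pooled, so the mutation and the pooling cannot be told apart. Cdh16, Cdh5, Ocln, Pkp4 and Tjp3 were lower with the mutation, Cldn2, Cdh13 and Cdh11 were higher, and the other 15 of the 23 genes tested did not pass an adjusted p of 0.05. Cldn2, Cdh13 and Cdh11 entered the test through the tumours alone (14, 7 and 5 tumours at 10 TPM or more, and 0 pools), so they had to be higher there to be tested. The 3 genes higher compare with 15.4% of all 7825 genes tested, and the 5 lower with 10%. Fold changes below are on the log2(TPM + 1) scale, which understates the change of genes with low levels. The median over the adhesion genes was 0.14, and over all genes tested 0.07. In sorted cells a smaller share of cells that make a transcript and less of it in each cell cannot be told apart.

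Cdh16 gave the largest decrease. It was at 8.23, 15.1, 12.6 and 5.63 TPM in the Braf tumours, 5.15 to 9.91 (median 8.24) in the Tert-123 tumours and 9.32, 4.83, 26.4 and 13.3 in the K5-Tert tumours. The pools were at 203 (K5-Tert), 79.6 (Tert-123) and 131 TPM (wild type), so all 15 tumours lay below every pool. The log2 difference was -3.61 (SE 0.329, limma adjusted p = 3.1e-08). Cdh1, the E-cadherin of epithelial adherens junctions, was at 89.3 to 129.7 TPM in Braf tumours, 84.3 to 130.4 in Tert-123 tumours and 38.7 to 159 in K5-Tert tumours, and at 151, 74.2 and 139 TPM in the pools, with overlapping ranges and a log2 difference of -0.19 (SE 0.305, adjusted p = 0.699). The thyrocyte markers moved with Cdh16: 5 of their 7 tested genes were lower with the mutation and none higher. Whether the lower level of these markers has a part in the Cdh16 difference was not tested.

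Among tight junction genes Ocln and Tjp3 were lower. Ocln was at 5.18, 8.78, 9.55 and 9.08 TPM in the Braf tumours, 4.34 to 9.74 (median 7.18) in the Tert-123 tumours and 12.8, 2.52, 6.89 and 5.73 in the K5-Tert tumours, against 37.5, 16.7 and 26.3 TPM in the pools. The log2 difference was -1.73 (SE 0.348, adjusted p = 0.000675), and no tumour reached a pool. Because Ocln entered the test through the pools, it had to differ in level to be tested at all. Tjp3, the zonula occludens scaffold found in epithelia, ran from 6.35 to 18.7 TPM (median 12.3) over the tumours, and the pools were at 47.5, 19.9 and 48.7 TPM. All 15 tumours were again below every pool, with a log2 difference of -1.45 (SE 0.282, adjusted p = 0.000489). Its relative Tjp1 was not called, with a log2 difference of 0.31 (SE 0.319, adjusted p = 0.531).

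Pkp4, a plakophilin-related armadillo protein of desmosomes and adherens junctions, was lower by a like amount. It ran from 5.05 to 29.5 TPM (median 16.5) over the tumours and was at 55.1, 44.3 and 52.4 TPM in the pools, which no tumour reached. The log2 difference was -1.63 (SE 0.315, adjusted p = 0.00046). No gene of the desmosomal core was called. Jup, Dsc2, Dsg2, Dsp, Pkp2 and Pkp3 had log2 differences of 0.60, 0.69, 0.29, -0.61, 0.14 and 0.11. Jup was above every pool in 11 of 15 tumours and Dsc2 in 12 of 15, and both were called higher once libraries were rescaled to a common reference (below).

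Cldn2, which forms cation-selective pores in leaky epithelia, was present in every tumour and at or near 0 in the pools. It was at 21.5, 11.9, 25.9 and 23.3 TPM in the Braf tumours, 11.8 to 50.2 (median 16.3) in the Tert-123 tumours and 16.4, 7.55, 17.1 and 21.6 in the K5-Tert tumours. The K5-Tert and Tert-123 pools are listed at 0 and the wild-type pool at 0.173 TPM, so the groups did not overlap. The fitted difference of 4.16 (SE 0.345, adjusted p = 7.56e-09) depends on the 1 TPM added before the logarithm: it was 5.05 with 0.5 added and 2.19 with 5 added, past the threshold each time, and is no measure of a fold. Cldn2 was 1.65% to 7.68% of claudin TPM in the tumours.

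Cldn8, a barrier claudin, was lower, at levels under the filter for testing. It was at 22.5, 6.4 and 23.4 TPM in the K5-Tert, Tert-123 and wild-type pools and at 0 to 3.45 TPM (median 0.894) in the tumours, all 15 of which were below every pool. Its share of claudin TPM was 1.96% to 4.62% in the pools and 0% to 0.405% in the tumours. With no filter on level, where all 66 genes are tested, it was lower by -3.02 (adjusted p = 7.01e-05). In that fit 4 adhesion genes were higher (Cldn2, Cdh13, Cldn11 and Cdh15) and 7 lower (Cdh16, Cdh5, Ocln, Pkp4, Tjp3, Cldn8 and Cdh4), against 7.88% and 6.27% of all 22693 genes. Cldn8, Cldn11, Cdh4 and Cdh15 are named here after their values were seen. Cldn11 was at 0, 0.253 and 0 TPM in the K5-Tert, Tert-123 and wild-type pools and at 0 to 14.3 TPM in the tumours, above every pool in 14 of 15. Cdh4, a classical cadherin of neural and some epithelial tissue, was at 21.8, 6.6 and 14.6 TPM in the pools and 0.815 to 11.8 TPM in the tumours, below every pool in 13 of 15.

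**Figure D2:**
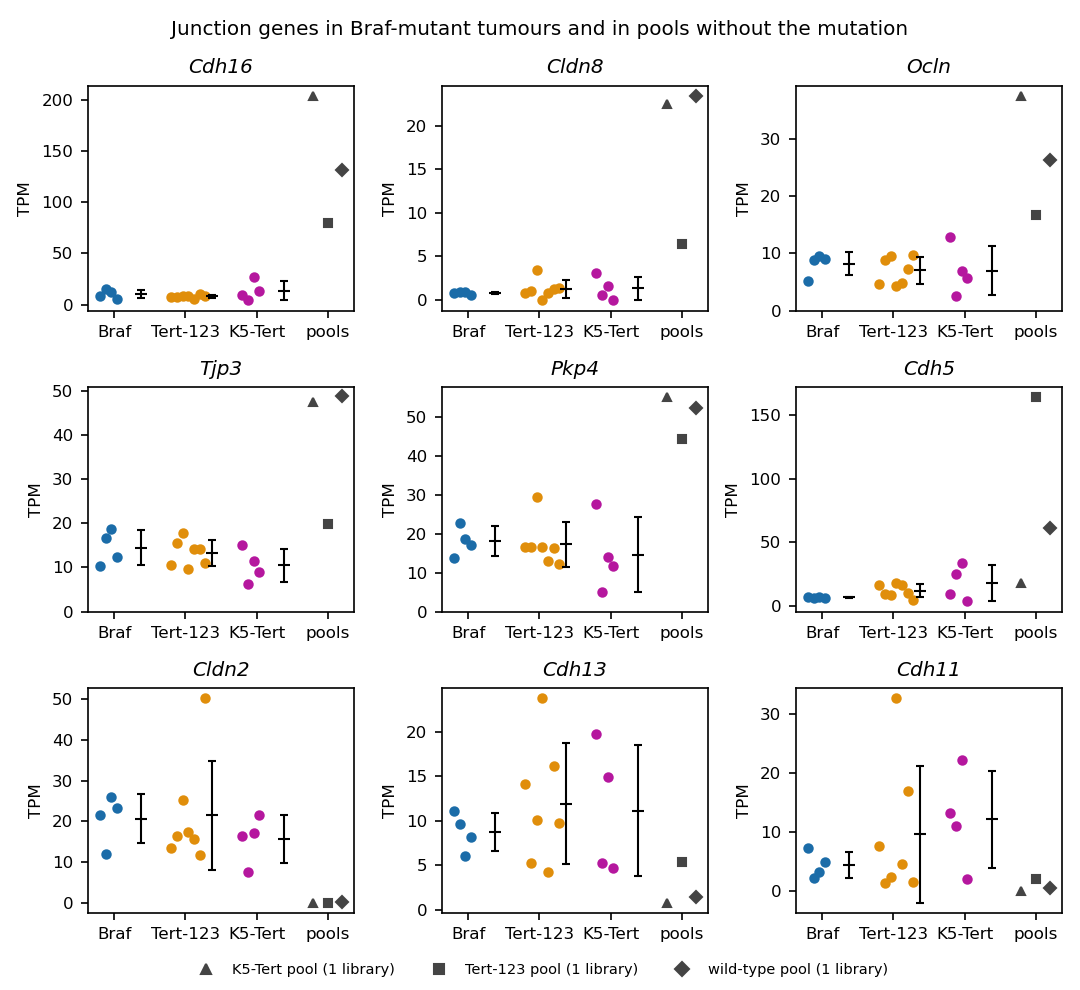
TPM (linear axis) of 9 adhesion genes in the 3 tumour groups Braf, Tert-123 and K5-Tert (circles, 1 per library, with mean ± SD beside them; n = 4, 7 and 4) and in the 3 pools without the Braf mutation (triangle, square, diamond). All 15 tumours lie below every pool for Cdh16, Cldn8, Ocln, Tjp3 and Pkp4 and above every pool for Cldn2, while Cdh5, Cdh13 and Cdh11 overlap.

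The sequences below are proximal promoters of 4 genes called higher (Cldn2) or lower (Ocln, Tjp3, Pkp4) in the Braf-mutant tumours than in the pools. The windows are from RefSeq (GRCm38.p6), 5′ to 3′ on the gene's strand, from 250 bases before to 50 bases after the start, and 39 of the 66 genes have an entry there. Ocln, Tjp3 and Pkp4 have 2 starts listed, of which the first is shown. The levels are per gene and do not show which start was used. Capitals mark matches on either strand to 6 motifs searched: CAGGTG (the E-box of Snail and Zeb repressors), CAAGTG (a core of Nkx2-1 sites), TGANTCA (AP-1), GGAATG (TEAD), CCGGAA (ETS) and TATAAA.
Cldn2, chrX:139800558-139800857, plus strand: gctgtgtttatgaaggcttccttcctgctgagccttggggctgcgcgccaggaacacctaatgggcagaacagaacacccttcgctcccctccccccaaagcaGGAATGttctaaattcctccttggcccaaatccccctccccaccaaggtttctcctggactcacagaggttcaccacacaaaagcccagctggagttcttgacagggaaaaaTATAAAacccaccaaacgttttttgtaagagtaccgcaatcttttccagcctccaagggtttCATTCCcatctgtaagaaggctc
Ocln, chr13:100552669-100552968, minus strand: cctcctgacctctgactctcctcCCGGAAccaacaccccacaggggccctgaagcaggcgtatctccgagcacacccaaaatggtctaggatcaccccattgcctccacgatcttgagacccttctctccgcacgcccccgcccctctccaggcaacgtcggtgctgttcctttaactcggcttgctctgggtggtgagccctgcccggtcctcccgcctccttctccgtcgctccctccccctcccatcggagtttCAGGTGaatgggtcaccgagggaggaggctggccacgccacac
Tjp3, chr10:81291532-81291831, minus strand: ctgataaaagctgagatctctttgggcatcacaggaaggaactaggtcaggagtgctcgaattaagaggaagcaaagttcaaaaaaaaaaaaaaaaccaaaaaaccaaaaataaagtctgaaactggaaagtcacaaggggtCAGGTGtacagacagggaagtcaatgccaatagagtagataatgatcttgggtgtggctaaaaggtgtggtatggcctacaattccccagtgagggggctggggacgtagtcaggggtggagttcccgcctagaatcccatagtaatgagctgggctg
Pkp4, chr2:59160600-59160899, plus strand: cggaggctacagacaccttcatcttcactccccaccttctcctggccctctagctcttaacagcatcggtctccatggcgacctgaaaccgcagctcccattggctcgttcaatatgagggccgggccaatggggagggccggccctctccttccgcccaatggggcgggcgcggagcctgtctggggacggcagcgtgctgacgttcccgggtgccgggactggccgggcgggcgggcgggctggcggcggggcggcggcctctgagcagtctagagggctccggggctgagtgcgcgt
The Cldn2 window held the TEAD letters at -147 and, on the other strand, at 28, and TATAAA at -35, counted from the start. The Ocln window held CAGGTG at 8 and CCGGAA at -227, the Tjp3 window held CAGGTG at -108, and the Pkp4 window held no match. Of 32851 promoter windows of this length 20.2% hold CAGGTG, 13.6% CAAGTG, 7.81% TGANTCA, 14.7% GGAATG, 14.9% CCGGAA and 13.6% TATAAA. These are matches of letters, and no binding was measured.

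The remaining 3 called cadherins are ones known from other cells. Cdh5, the cadherin of endothelial junctions, was at 6.71, 6.15, 6.46 and 6.3 TPM in the Braf tumours, 4.18 to 17.8 (median 9.68) in the Tert-123 tumours and 9.08, 24.8, 34.0 and 3.32 in the K5-Tert tumours. The pools were at 18 (K5-Tert), 164 (Tert-123) and 61.0 TPM (wild type), and 13 of 15 tumours lay below every pool. The log2 difference was -2.48 (SE 0.528, adjusted p = 0.00119) and -1.75 (adjusted p = 0.0448) without the Tert-123 pool. It moved with the 10 endothelial markers, which do not include Cdh5. Their sum was 33.5 to 194 TPM in the tumours and 141, 1218 and 421 in the K5-Tert, Tert-123 and wild-type pools, and 6 of the 7 tested were lower with the mutation. On the tumours alone 6 endothelial markers passed the filter, and the remaining one passed only with the pools counted. K5-Tert tumour 3 had both the highest Cdh5 (34.0 TPM) and the highest endothelial sum (194 TPM) of the tumours.

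Cdh13, a cadherin anchored to the membrane by lipid and made in vessels and several epithelia, ran from 4.23 to 23.7 TPM (median 9.78) over the tumours. The pools were at 0.848, 5.38 and 1.46 TPM, and 11 of 15 tumours were above every pool, with a log2 difference of 1.74 (SE 0.443, adjusted p = 0.0054). Cdh11, the cadherin of fibroblasts and other mesenchymal cells, ran from 1.37 to 32.6 TPM (median 4.92) and was at 0, 2.04 and 0.499 TPM in the pools. It was above every pool in 12 of 15 tumours, with a log2 difference of 2.06 (SE 0.699, adjusted p = 0.0326). The sum of 7 fibroblast markers was 89.9 to 2418 TPM (median 374) in the tumours and 33.4, 342 and 37.5 in the pools, and 3 of the 6 tested were higher with the mutation. Tert-123 tumour 4 had the highest Cdh11 (32.6 TPM), the highest Cdh13 (23.7 TPM) and the highest fibroblast sum (2418 TPM). What part transcripts of endothelial cells and fibroblasts had in the Cdh5, Cdh13 and Cdh11 differences was not tested. The Cdh11 call was lost in 7 of 30 alternatives: without the K5-Tert pool (1.43) or the wild-type pool (2.21), by quantile normalization (0.46, adjusted p = 0.653), with 5 added (1.02), with no filter on level (adjusted p = 0.0557), in the groups compared alone (1.62), and without K5-Tert tumours 2, 3 and 4 (1.98).

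**Figure D3:**
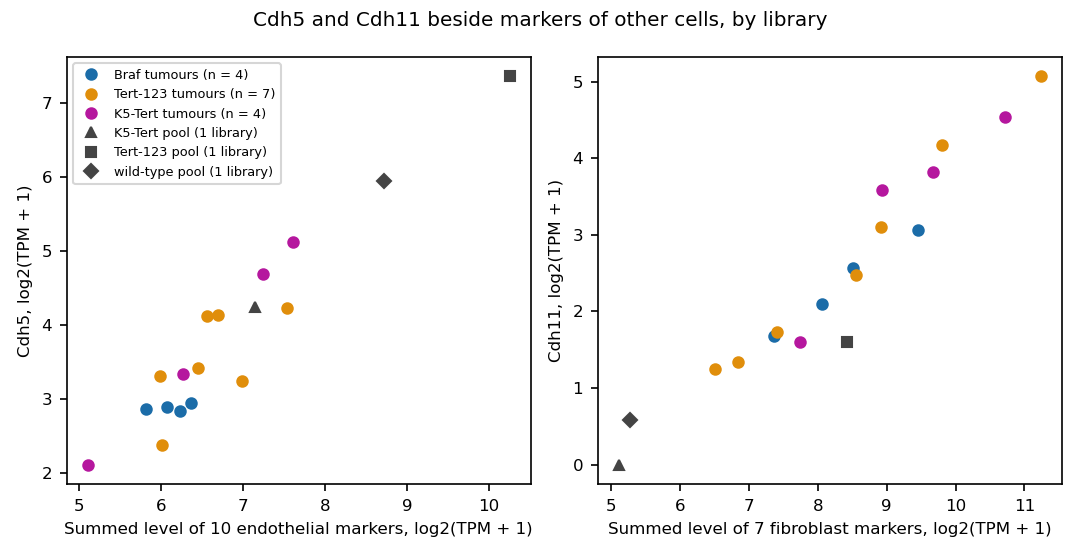
Cdh5 against the summed level of 10 endothelial markers (left) and Cdh11 against that of 7 fibroblast markers (right), both axes as log2(TPM + 1), with 1 point per library for 15 tumours and 3 pools. Libraries with more endothelial transcript broadly had more Cdh5, up to the Tert-123 pool at 164 TPM, and the 2 tumours with the highest fibroblast sums (Tert-123 tumour 4 and K5-Tert tumour 3) had the highest Cdh11, 32.6 and 22.2 TPM.

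Cdh2, the N-cadherin of neural and mesenchymal cells, stayed low throughout. It was at 0.237 to 3.41 TPM (median 0.859) in the tumours and is listed at 0 in the 3 pools, and it did not reach the level needed for the tests. Cldn6, a claudin of embryonic epithelium, was at 8.25, 22.7, 42.0 and 16.2 TPM in the Braf tumours, 3.5 to 18.7 (median 12.2) in the Tert-123 tumours, 10.8, 2.26, 4.05 and 5.46 in the K5-Tert tumours, and 11, 1.64 and 1.96 in the pools. Its difference with the mutation was 1.37 (SE 0.549, adjusted p = 0.0727).

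Adding the Tert promoter change to the Braf mutation gave no adhesion gene past the test. Of 22 genes compared between Tert-123 and Braf tumours, limma called 0 in either direction, and at an unadjusted p under 0.05 there were 0. The background was the same, 0.0% of 7498 genes in either direction, with 50 genes at an unadjusted p under 0.05. Cldn3 averaged 306 ± 89.8 TPM (SD, n = 7) against 339 ± 87.6 (n = 4) in Braf tumours, Cdh1 112 ± 18.7 against 112 ± 20.2, and Dsc2 26.5 ± 5.91 against 25.8 ± 2.87. Cldn10, a paracellular ion-pore claudin, had the largest difference at -1.17 (SE 0.663), and it varied from 0.267 to 23.3 TPM within the Tert-123 tumours and from 4.77 to 26.7 TPM within the Braf tumours.

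K5-Tert tumours were lower than Braf tumours in a few adhesion genes as the values were deposited. Of 22 genes tested, Cldn6 and Dsc2 were lower and 0 were higher, beside 21.9% of all 7498 genes lower and 0.587% higher, and 8 had an unadjusted p under 0.05, all lower. Against Tert-123 tumours 3 genes were lower, Dsc2 and Jup among them, and 0 higher, beside 29.5% lower and 0.76% higher, again with 8, all lower, at an unadjusted p below 0.05. For the adhesion genes the median difference from Braf tumours was -0.45 and for all genes -0.48, and from Tert-123 tumours the medians were -0.37 and -0.48. The 2 of 22 and 3 of 22 genes lie under those backgrounds, and the comparisons share the K5-Tert libraries. Markers of other cells moved in the same comparisons: against either group, 2 of 3 tested pericyte and smooth muscle markers and 1 of 8 macrophage markers were higher, and 3 of 7 thyrocyte markers were lower. The sum of the 7 pericyte and smooth muscle markers was 91.0, 108, 197 and 40.03 TPM in K5-Tert tumours 1 to 4, 20.3 to 40.8 in Braf tumours and 16.9 to 98.9 in Tert-123 tumours. Their part in the adhesion gene differences was not tested.

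Dsc2, a desmosomal cadherin, was at 34.3, 4.53, 10.5 and 10.7 TPM in K5-Tert tumours 1 to 4. It was at 22.5, 27.8, 28.5 and 24.3 TPM in the Braf tumours and 19.4 to 33.3 (median 28.3) in the Tert-123 tumours, so 3 of 4 K5-Tert tumours lay below all other tumours and tumour 1 lay above them all. The log2 difference was -1.07 (SE 0.371, adjusted p = 0.0452) from Braf tumours and -1.08 (SE 0.329, adjusted p = 0.0217) from Tert-123 tumours. Jup, which links desmosomal cadherins to desmoplakin, was at 113, 48.8, 62.2 and 73.7 TPM in K5-Tert tumours 1 to 4, 98.0 to 121 in Braf tumours and 75.9 to 158 in Tert-123 tumours. The difference was -0.61 (SE 0.266, adjusted p = 0.0971) from Braf tumours and -0.68 (SE 0.236, adjusted p = 0.0365) from Tert-123 tumours.

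Dsp, Dsg2 and Tjp1 were also below all 4 Braf tumours in K5-Tert tumours 2, 3 and 4 and not in tumour 1, where Dsp was at 98.9 TPM against 17.3, 40.7 and 39.5 TPM, but they were not called (adjusted p = 0.0824, 0.0572 and 0.0784). The sealing claudins Cldn3, Cldn4 and Cldn7 were not called. Cldn3 was at 392, 264, 206 and 407 TPM in K5-Tert tumours 1 to 4 and 229.6 to 417 in Braf tumours, with a difference of -0.11 (SE 0.285, adjusted p = 0.788). Cldn4 (71.6 and 89.3 TPM) and Cldn7 (40.5 and 39.0 TPM) were below every Braf tumour in K5-Tert tumours 2 and 3 and not in tumours 1 and 4, with differences of -0.08 (SE 0.327, adjusted p = 0.858) and -0.38 (SE 0.327, adjusted p = 0.381). Cldn6 was lower by -1.76 from Braf tumours (SE 0.473, adjusted p = 0.0172) and -1.10 from Tert-123 tumours (SE 0.419, adjusted p = 0.0527). The first call was lost without Braf tumour 3, which held the highest level (42.0 TPM). Over all 7498 genes, those called lower than in Braf tumours then fell from 1641 to 397.

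**Figure D4:**
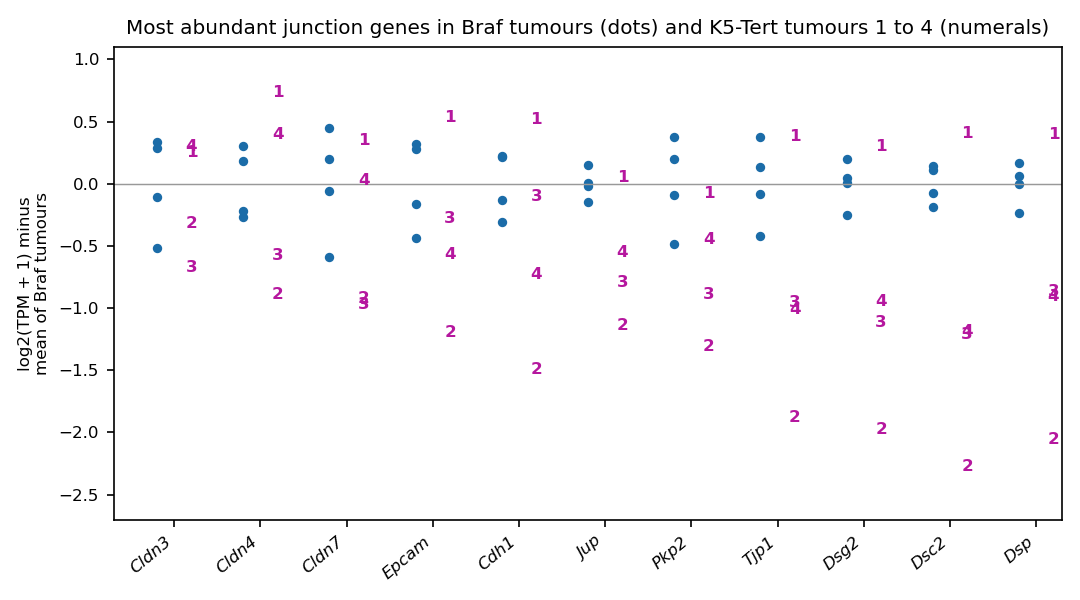
Difference of log2(TPM + 1) from the mean of the 4 Braf tumours for 11 abundant adhesion genes, with Braf tumours as dots and K5-Tert tumours 1 to 4 as numerals. K5-Tert tumour 1 stays near or above the Braf tumours while tumour 2 is the lowest in 9 of the 11 genes, and tumours 2, 3 and 4 are all below the Braf tumours for Dsp, Dsc2, Dsg2, Tjp1 and Jup.

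The K5-Tert differences were set beside a property of the libraries, the trend of level with transcript length. In K5-Tert tumours 2, 3 and 4 the levels of genes, relative to their mean over all tumours, fell with the length of the transcript (Spearman rho over 7773 genes -0.54, -0.23 and -0.42), as they did in Tert-123 tumour 7 (-0.18). In K5-Tert tumour 1 they rose (0.30), as in the 4 Braf tumours (0.13 to 0.36). Desmosome and scaffold transcripts are long (Dsp 9592 bases, Tjp1 7049, Dsg2 5766) and the sealing claudins short (Cldn3 1259, Cldn7 1335, Cldn4 1816), taking the longest coding transcript of the annotation. Across the 22 genes the correlation of the difference from Braf tumours with length was -0.30, and across all genes -0.41. The 11 shorter genes had a median difference of -0.39 and the 11 longer ones -0.61. With each library's trend on length and its mean removed, 1 gene was lower than in Braf tumours (Cldn6, -1.43, adjusted p = 0.0448) and 0 were lower than in Tert-123 tumours. Of all 7447 genes in that fit, 418 were lower than in Braf tumours and 492 lower than in Tert-123 tumours. Removing the mean also moved the median difference of all genes from Braf tumours from -0.48 to 0.01. Rescaling with no term for length gave 0 genes lower (below). The part of length alone in the lost calls was not tested.

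**Figure D5:**
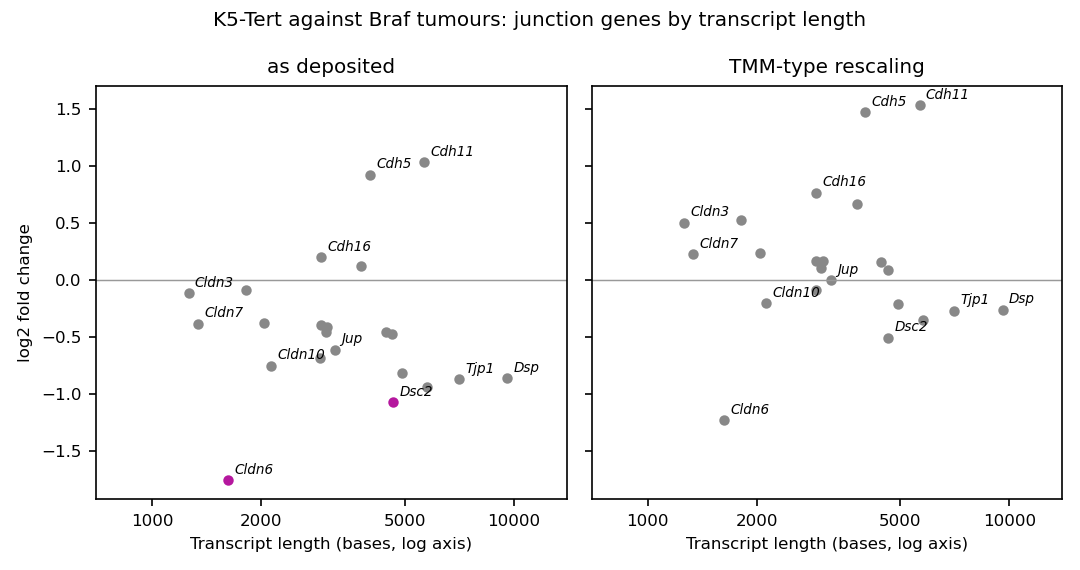
Log2 fold change of the 22 tested adhesion genes between K5-Tert and Braf tumours against transcript length (log axis), with values as deposited (left) and after rescaling of the TMM type (right); coloured points passed an adjusted p of 0.05. Cldn6 and Dsc2 are the 2 genes past the threshold on the left and none is on the right, where the long genes Dsp and Tjp1 are still below Cldn3.

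Most of these calls changed with the common scale of the libraries. Rescaling by trimmed means of ratios (the TMM type) moved the median difference of all genes between K5-Tert and Braf tumours from -0.48 to 0.10 and the number of adhesion genes below 0 from 18 to 8 of 22. On that scale 0 of 22 were called against Braf tumours (background 8.24% higher and 4.56% lower), with 3 at an unadjusted p under 0.05. Against Tert-123 tumours Cdh16 alone was called, as higher by 1.07 (adjusted p = 0.0343), against a background of 10.6% higher and 4.11% lower. Cldn6 kept its direction against Braf tumours at -1.23 and Dsc2 at -0.50, while Cdh1, Cldn3, Cldn4, Cldn7 and Epcam turned from below to above 0. Without K5-Tert tumour 1 the deposited values gave 11 of 22 genes lower in each comparison. Of all 7498 genes, 3520 were then lower than in Braf tumours and 3938 lower than in Tert-123 tumours. Without K5-Tert tumour 2 the deposited values gave 0 adhesion genes, beside 427 and 552 of all genes. With Xist above 10 TPM as a covariate, 0 adhesion genes were lower than in Braf tumours, beside 395 of all genes. In that fit 2 were lower than in Tert-123 tumours, beside 1694 of all genes. The 2 genes lower than in Braf tumours were 0 without Braf tumour 3. The count was 1 (Cldn6 each time) without Braf tumour 2 or 4, or without K5-Tert tumour 3 or 4. It was also 1 (Cldn6) without Tert-123 tumour 1, 2, 5, 6 or 7. Cdh5 was called higher without K5-Tert tumour 4. Over all genes the number lower than in Braf tumours, 1641 with every library, was 397 without Braf tumour 3. It was 727 and 736 without Braf tumours 2 and 4, and 1570 and 427 without K5-Tert tumours 3 and 4. Without 1 of those Tert-123 tumours it was 1360 to 1597. The 3 genes lower than in Tert-123 tumours were 5 without Tert-123 tumour 1 or 4, 1 (Dsc2) without Tert-123 tumour 3, 5 or 7 or K5-Tert tumour 3, and 0 without K5-Tert tumour 4. Over all genes the number lower than in Tert-123 tumours, 2210 with every library, was 2585 and 2245 without Tert-123 tumours 1 and 4. It was 1507, 1653 and 1676 without Tert-123 tumours 3, 5 and 7, and 2284 and 558 without K5-Tert tumours 3 and 4. K5-Tert tumours carry higher sample numbers than any other tumour, and a difference in when they were processed cannot be told apart from the transgene.

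In the comparison of the Braf mutation the same rescaling gave 6 genes higher and 5 lower, beside 23.6% and 15.7% of all genes. The 5 lower genes were the same, and Jup (0.65), Cldn6 (1.41) and Dsc2 (0.73) joined Cldn2, Cdh13 and Cdh11 among the higher. As deposited, 6 genes were higher without K5-Tert tumour 2 and 5 without the K5-Tert pool, beside 1402 and 1826 of all 7825 genes.

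Partners of the same junctions were counted in 6 lists. With the Braf mutation, 3 of 18 tested tight junction partners were higher and 4 lower (list median -0.14 against 0.07 for all genes), beside 15.4% higher and 10% lower of all genes tested. The scaffolds Magi3 (-2.10, adjusted p = 7.58e-05), Mpp5 (-1.73, adjusted p = 2.66e-05) and Amotl2 (-1.15, adjusted p = 0.000298) fell. Magi3 was at 2.55 to 14.7 TPM in the tumours and 30.4 to 56.6 in the pools, and Mpp5 at 7.32 to 17.1 and 32.0 to 48.7, without overlap. Cgnl1, a cingulin-like scaffold, was higher by 1.73 (adjusted p = 0.000389), at 43.8 to 294 TPM in tumours and 38.3 to 53.2 in pools. Among 10 adherens junction partners 2 were higher (Nectin3, 1.45, and Nectin4, 0.83) and 1 lower (Afdn, the nectin-binding afadin, -1.21). Of 3 gap junction genes 2 were higher, among them Gja1 (connexin 43) by 2.08, at 15.7 to 37.8 TPM in pools and 55.6 to 188 in tumours. Of 12 desmosome and hemidesmosome partners and 7 processing enzymes and Epcam partners limma called 0 as deposited. After TMM-type rescaling 4 of the 12 were higher and 2 lower, and 2 of the 7 higher and 0 lower, beside 23.6% higher and 15.7% lower of all genes; the tight junction list then held 3 higher and 6 lower, and the adherens junction list 3 and 2. Of 11 transcription factors listed as acting on epithelial adhesion 1 was higher (Klf5, 1.31) and 3 lower (Klf4, -2.53, Pax8, -1.94, and Foxe1, -1.24). On the tumours alone 10 of these factors passed the filter, and the remaining factor passed only with the pools counted. Pax8, Foxe1, Nkx2-1 and Hhex are in this list and also among the thyrocyte markers. The counts of the factors and of the thyrocyte markers therefore overlap.

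Between K5-Tert and Braf tumours 0 partners in any list were higher, and the lower ones were 7 of 18 tight junction partners, 1 of 10 adherens junction partners (Afdn, -1.17) and 6 of 10 transcription factors, with 0 in the other 3 lists, beside 21.9% of all genes. Pard3, the polarity scaffold, had a log2 difference of -1.14, Magi1 -1.14 and cingulin (Cgn) -1.17, with limma adjusted p-values of 0.0189, 0.0171 and 0.0246. Of the factors Hhex had -1.37, Nkx2-1 -1.31 and Grhl2 -1.26, and Hhex and Nkx2-1 are also thyrocyte markers. Against Tert-123 tumours, where 29.5% of all genes were lower, the counts were 7, 2 and 6, with Ppl (periplakin, -1.03) the 1 desmosome partner called. After rescaling of the TMM type 0 partners were lower in either comparison (background 4.56% and 4.11%), and those higher were 1 transcription factor against Braf tumours and 1 tight junction partner against Tert-123 tumours (background 8.24% and 10.6%). Between Tert-123 and Braf tumours 0 partners were called in either direction.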

How the data were processed

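Gene-level values from 18 libraries were used as deposited by the authors and treated as TPM, since all columns add up to 1000000; its name says normalized counts, and scaling by length is an inference. Aligner, quantification tool, genome build and annotation: not given in the sources used. Libraries were made by a low-input messenger RNA protocol from sorted cells, per the labels. Of 23652 entries, 26 whose names had become dates were left out (at most 0.0455% of TPM). Depth is unknown, so no counting interval is given.

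Groups come from the genotype labels. Genes at 10 TPM or more in at least 4 libraries of a fit were tested as log2(TPM + 1) with limma 3.58.1 (R 4.3.3, mean-variance trend, two-sided), with Benjamini-Hochberg adjustment over all genes tested and a threshold of 0.05. The 3 tumour groups were fitted together (12 residual degrees of freedom); the Braf term, with the Tert allele as covariate, used every library (14). The code was tested on simulated data. The adhesion genes, the lists and the tests were chosen with earlier results of these data known. Genes named are those called in any comparison, those with a tumour mean of at least 50 TPM, and Cdh1, Cdh2, Cdh16, Epcam, Ocln, Tjp1, Dsp and Jup, with up to 3 called members of each list with the smallest p; a few named by level or after their values were seen are marked or given by level. Lengths are those of the longest coding transcript in GENCODE M21, a measure set after seeing that medians over transcripts were too short.
The alternatives tried were 0.5 or 5 added before the logarithm, testing every gene or those at 50 TPM, TMM-type factors (trimming 30% of ratios and 5% of levels), quantile normalization, rescaling without Rpph1, removal of the trend on length, library weights, Xist as a covariate, only the groups compared, and leaving out libraries. Values of a few genes under this rule are not reported here, though the fits and counts include them.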

Additional observations from a re-analysis of the deposited data

Results flagged for a closer look

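Among 57 sets of values (19 named adhesion genes in each of 3 tumour groups), 2 held a library far from the others of its group by Dixon's criterion, where chance alone gives about 1 in 20. Cldn2 in Tert-123 tumour 7 was at 50.2 TPM, with the other 6 Tert-123 tumours at 11.8 to 25.3 TPM. Pkp4 in Tert-123 tumour 3 was at 29.5 TPM, with the others at 12.3 to 16.6 TPM, and still below the 3 pools.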

How the results depend on the processing

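The calls of Cdh16, Cdh5, Cldn2, Ocln, Pkp4 and Tjp3 with the Braf mutation were kept in 30 of 30 alternatives in which they were tested, that of Cdh13 in 29 (lost by quantile normalization, 0.57) and that of Cdh11 in 23. At the main filter Cldn2, Cdh13 and Cdh11 entered through the tumours and Ocln mostly through the pools, which favoured the direction of their calls. All the alternatives rest on the same 3 single pools or fewer, so these counts are not independent support. The count of adhesion genes higher with the mutation (3) was 0 at a filter of 50 TPM, 6 with TMM-type factors, 7 without Rpph1, 5 with the length trend removed, 9 with library weights, 5 in the groups compared alone, 6 without K5-Tert tumours 2 and 4, 8 without 2, 3 and 4, and 2 to 6 leaving out 1 library; the count lower (5) was 0 at 50 TPM, which none of these genes passed, and 5 to 5 leaving out 1 library. Between K5-Tert and Braf tumours the count higher (0) was 1 by quantile normalization (Cdh5) and 0 to 1 leaving out 1 library. The count lower (2) was 1 with 5 added, no filter, no Rpph1, the length trend removed or the groups compared alone, 0 at 50 TPM, with TMM-type factors, quantile normalization, Xist, or without K5-Tert tumours 2 and 4 or 2, 3 and 4, 13 with library weights, and 0 to 11 leaving out 1 library. Between K5-Tert and Tert-123 tumours the count higher (0) was 1 with TMM-type factors and 0 to 0 leaving out 1 library; the count lower (3) was 1 with no filter or the groups compared alone, 0 at 50 TPM, with TMM-type factors, quantile normalization, no Rpph1, the length trend removed, or without K5-Tert tumours 2 and 4 or 2, 3 and 4, 11 with library weights, and 0 to 11 leaving out 1 library. Leaving out K5-Tert tumours 2, 3 and 4, chosen after seeing the data, reversed Dsc2 to 0.40 and 0.39 (from Braf and Tert-123 tumours); that arm is then tumour 1 alone, the highest of all tumours in Dsc2, with its spread taken from the other groups, so the sign follows from the choice of libraries. Between Tert-123 and Braf tumours the counts were 0 in every alternative. Counts over all genes changed too. Those higher with the mutation, 1205 of 7825 in the main fit, were 1354 of 7773 with the length trend removed. They were 1331 of 7825 in the groups compared alone and 1854 without K5-Tert tumours 2 and 4. At a filter of 50 TPM they were 439 of 1749. With library weights 3327 of 7825 genes were higher with the mutation. Of 7498 genes, 4852 were then lower in K5-Tert than in Braf tumours and 4640 lower than in Tert-123 tumours. Without Rpph1 29 adhesion genes were tested, and 2257 of 10819 genes were higher with the mutation. Genes lower in K5-Tert than in Braf tumours, 1641 of 7498 in the main fit, were 395 with Xist and 467 in the groups compared alone. They were 16 without K5-Tert tumours 2 and 4, and 487 of 7497 by quantile normalization. No paired analysis was possible because the labels name no pairs of libraries. The tumour numbers used here follow the order of the samples within each group and are not from the labels.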
